A study of Mus musculus with 12 samples.

Results

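Head muscle progenitors of the mouse embryo were compared between embryonic day 10.5 (E10.5) and embryonic day 9.5 (E9.5). The groups were taken from the sample titles, which assign 2 arrays to head E10.5 and 2 arrays to head E9.5, 4 of the 12 arrays of the series. All 4 came from Myf5Cre;RosaYFP embryos of the ICR strain: Cre driven from the Myf5 locus switches on YFP from the Rosa locus, and YFP+ cells of dispersed head tissue were collected by fluorescence-activated sorting before RNA was extracted, amplified and hybridised. The label therefore also stays on in descendants of any cell that once expressed Myf5, and both stages carry the Cre and the reporter. The other 8 arrays (head at E11.5, and trunk at E9.5, E10.5 and E11.5) served as a measure of the spread between arrays. They also counted in the filter that left out low signals and in the choice of the probe set for each gene. The labels do not say whether the replicates of a group came from separate embryos, litters or pools, so p-values measure the spread between these samples, which may be technical.

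Myf5 is the earliest of the myogenic regulatory factors, the basic helix-loop-helix proteins that commit cells to the muscle lineage and bind E-box DNA together with E proteins. Myod1 acts beside it in commitment, and Myog drives differentiation, after which contractile genes are expressed. In the head, muscle arises from cranial mesoderm without the Pax3 step of the trunk, under regulators such as Tbx1, Msc and Tcf21, and the progenitors lie among cranial neural crest cells, which form the connective tissue around them.

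The deposited signals are intensities, and the median probe set of the 4 arrays lay between 109.69 and 110.23. Over the 7722 genes tested, Pearson correlations of log2 signal were 0.957 between the E10.5 arrays, 0.961 between the E9.5 arrays, and 0.927 to 0.968 across the stages. The highest of these, 0.968, joined E10.5 replicate 2 with E9.5 replicate 2, so these 2 arrays resembled each other more than either resembled its own replicate. Xist, the RNA that coats the inactive X chromosome, had a signal of 163 on E10.5 replicate 1 and 5006 on E10.5 replicate 2, against 6880 and 3790 on the E9.5 arrays. Of the other 8 arrays, 1 trunk array of E10.5 was similarly low. The Y-linked gene Eif2s3y had 983 and 588 at E10.5, against 357 and 644 at E9.5. The 3′ probe set of the control gene Actb exceeded its 5′ probe set by 5.46 and 5.28 on the log2 scale at E10.5, against 6.003 and 5.29 at E9.5, so E9.5 replicate 1 had the widest gap of the 4. For Gapdh the gap was 5.98 and 5.75 at E10.5, against 5.37 and 5.94 at E9.5, and that array had the narrowest. The part of these array differences in the results was not tested. Counts of calls, some list medians and some genes are also given without the arrays concerned, and other genes only with all arrays.

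Between E10.5 and E9.5, 74 genes were called, 0.958% of the 7722 genes tested (limma, Benjamini-Hochberg adjusted p under 0.05 over all genes tested). Of these, 54 genes (0.699%) were higher at E10.5 and 20 genes (0.259%) were lower. These shares of all genes tested are the background for every count of list members called below, also where they are not repeated. The median log2 difference over all genes tested, E10.5 minus E9.5, was -0.01. The calls rested on particular arrays. Without E10.5 replicate 1, 2 genes were called, Fap and AI506816, the second named after its values were seen, and without E9.5 replicate 1 the count was 13. Without E10.5 replicate 2 it was 135, and without E9.5 replicate 2 it was 114. All 74 genes kept their direction with each of the 4 arrays left out, and Fap alone was called each time. A fold below is the ratio of group means after signals under an array's median probe set were raised to that median. It is written as "at least" where an array of the dimmer group lay under the median, and log2 differences are from the signals as deposited.

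**Figure D1:**
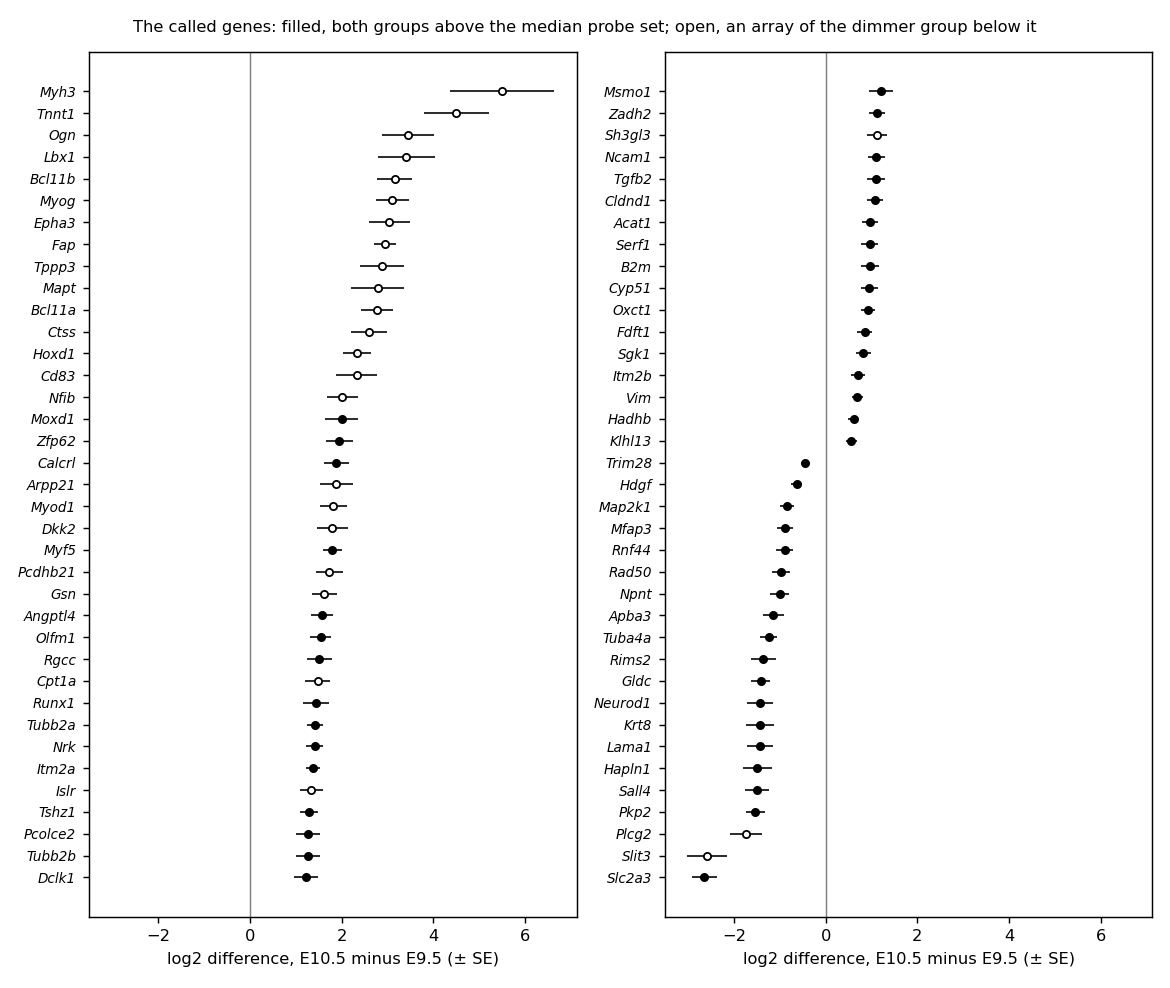
Log2 difference in signal, head E10.5 minus head E9.5, for the 74 called genes, ordered from the most positive to the most negative. Points are fitted differences and bars are standard errors (2 arrays per group); open points mark genes with an array of the dimmer stage under the median probe set, among them Myh3, Tnnt1, Ogn, Lbx1, Bcl11b and Myog.

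The 3 myogenic regulatory factors that were tested were higher at E10.5. Of 17 listed myogenic factors and partners, 9 passed the filter on low signals and 3 of those rose, against 0.699% of all genes tested. In bulk RNA of sorted cells, more cells of a type and more RNA per cell cannot be told apart. Myf5 had signals of 2294 and 2120 on the E10.5 arrays, against 525 and 771 on the E9.5 arrays. Both E10.5 values lay above both E9.5 values, and all 4 were above the median probe set. The log2 difference was 1.79 ± 0.21 (SE, n = 2 arrays per stage), a 3.47-fold higher level at E10.5 (limma adjusted p = 0.00266). Myog, the differentiation factor, had 335 and 227 at E10.5, against 40.4 and 25.3 at E9.5, both E9.5 values under the median probe set. Its log2 difference was 3.11 ± 0.36, at least 2.51-fold (limma adjusted p = 0.00266). Myod1 had 319 and 216 at E10.5, against 56.9 and 96.5 at E9.5, again under the median at the earlier stage. It differed by 1.82 ± 0.30 on the log2 scale, at least 2.39-fold (limma adjusted p = 0.0173). Thus Myf5 was the only one of the 3 with a measured level above the median at E9.5.

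Without E10.5 replicate 1, the log2 differences were 1.74 for Myf5, 2.83 for Myog and 1.54 for Myod1, and the limma adjusted p rose to 0.0552 for Myf5 and for Myog and to 0.164 for Myod1. Without E9.5 replicate 1, Myf5 differed by 1.52, Myog by 3.45 and Myod1 by 1.44, and Myf5 and Myog were still called. Differences were smaller for the partners. Mef2c, the MADS-box cofactor of the myogenic factors, had 1121 and 1057 at E10.5, against 591 and 740 at E9.5, with a log2 difference of 0.72 (limma adjusted p = 0.269). The E protein genes Tcf12 and Tcf3 differed by 0.15 and 0.28 and Mef2d by -0.18, none of them called. Over the 9 tested members, both E10.5 arrays lay above both E9.5 arrays for 5 members, where 20.5% of all genes tested did so, and the median log2 difference was 0.28, ranging between 0.15 and 0.56 with each array left out.

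The promoters of 2 of these factors and of the 2 called contractile genes are shown because the myogenic factors bind E-boxes, here the letters CANNTG, which read the same on both strands. Each line gives the 250 bases upstream of the RefSeq start in build GRCm38.p6, 5′ to 3′ on the gene's strand, with E-boxes in capitals. They lie at chr10:107486135-107486384 on the minus strand for Myf5, chr1:134289754-134290003 on the plus strand for Myog, chr7:4515976-4516225 on the minus strand for Tnnt1 and chr11:67078050-67078299 on the plus strand for Myh3.
Myf5: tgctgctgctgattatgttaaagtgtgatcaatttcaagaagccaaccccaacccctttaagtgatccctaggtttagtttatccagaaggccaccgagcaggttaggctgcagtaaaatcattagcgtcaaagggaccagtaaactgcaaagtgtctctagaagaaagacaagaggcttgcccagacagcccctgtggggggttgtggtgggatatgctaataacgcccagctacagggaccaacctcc
Myog: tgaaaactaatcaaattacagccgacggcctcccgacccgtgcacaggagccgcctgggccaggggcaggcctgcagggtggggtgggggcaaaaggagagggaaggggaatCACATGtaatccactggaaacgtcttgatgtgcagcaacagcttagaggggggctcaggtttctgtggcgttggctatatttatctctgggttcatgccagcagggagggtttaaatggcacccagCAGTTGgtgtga
Tnnt1: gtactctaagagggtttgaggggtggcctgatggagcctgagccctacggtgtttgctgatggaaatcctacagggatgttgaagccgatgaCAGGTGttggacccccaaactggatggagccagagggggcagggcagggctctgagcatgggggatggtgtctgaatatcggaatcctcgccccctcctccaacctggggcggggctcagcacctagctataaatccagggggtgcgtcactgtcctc
Myh3: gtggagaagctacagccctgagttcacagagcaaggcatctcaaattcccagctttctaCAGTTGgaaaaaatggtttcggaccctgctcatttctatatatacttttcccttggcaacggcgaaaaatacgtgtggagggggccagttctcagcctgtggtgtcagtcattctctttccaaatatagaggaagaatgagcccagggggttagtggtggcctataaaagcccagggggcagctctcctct
The Myog window held 2 matches, CACATG and CAGTTG, beginning 138 and 12 bases before the start. Tnnt1 held CAGGTG 158 bases before the start, and Myh3 held CAGTTG 191 bases before it. The Myf5 window held 0 matches, which says only that these letters are not in this window. Among genes called higher, 26 of the 39 with a RefSeq promoter sequence (66.7%) held an E-box in this window, among those called lower 7 of 14 (50%), and among all genes tested 3451 of 6290 (54.9%). A match is a description of the letters and not of binding.

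Contractile genes divided into a few that were higher at E10.5 and a larger number that were not called. Of 37 listed sarcomere genes, 23 were tested, 2 rose and 0 fell, against 0.699% and 0.259% of all genes tested. Tnnt1, the slow skeletal troponin T, had 355 and 440 at E10.5, against 6.17 and 49.0 at E9.5. The E9.5 arrays differed widely from each other but both lay far under the median probe set. The log2 difference was 4.51 ± 0.71, at least 3.60-fold (limma adjusted p = 0.0137). Myh3, the embryonic myosin heavy chain, had 159 and 238 at E10.5, against 5.29 and 3.46 at E9.5. The log2 difference of 5.51 ± 1.14 came from values far under the median at E9.5, and the fold was at least 1.77 (limma adjusted p = 0.0481). Without E10.5 replicate 1 the adjusted p was 0.118 for Tnnt1 and 0.212 for Myh3.

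Ttn, which encodes the giant sarcomeric spring titin, had 829 and 752 at E10.5, against 216 and 180 at E9.5. Its 4.004-fold higher level had all 4 values above the median and no overlap, but a limma adjusted p of 0.0694. Myh7, the slow and cardiac myosin heavy chain, ran the other way, with 159 and 76.4 at E10.5, against 646 and 274 at E9.5 (log2 difference -1.93, limma adjusted p = 0.0959). Tpm1, a tropomyosin, differed by 0.49 and Myl4, the atrial and embryonic myosin light chain, by -1.38, neither called. The list as a whole had a median log2 difference of 0.19 (0.08 to 0.35 with each array left out), with 9 members higher and 4 lower on both E10.5 arrays than on both E9.5 arrays. The background share was 20.5% for the first kind and 22.3% for the second.

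These levels bear on the label of the cells. Of 11 skeletal muscle markers, 7 lay above the median probe set on each E10.5 array, against 1 on each E9.5 array. The marker above it at E9.5 was Actc1, the cardiac alpha-actin that embryonic skeletal muscle also expresses, with 1103 and 2147 at E10.5 and 1176 and 1321 at E9.5. Chrna1, Myl1, Mylpf and Tnnc1 lay under the median on all 4 arrays. The summed signal of the 11 markers was 2755 and 3810 at E10.5, against 1528 and 1819 at E9.5. At E9.5 Myf5 thus lay above the median probe set while 10 of these 11 markers lay under it.

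**Figure D2:**
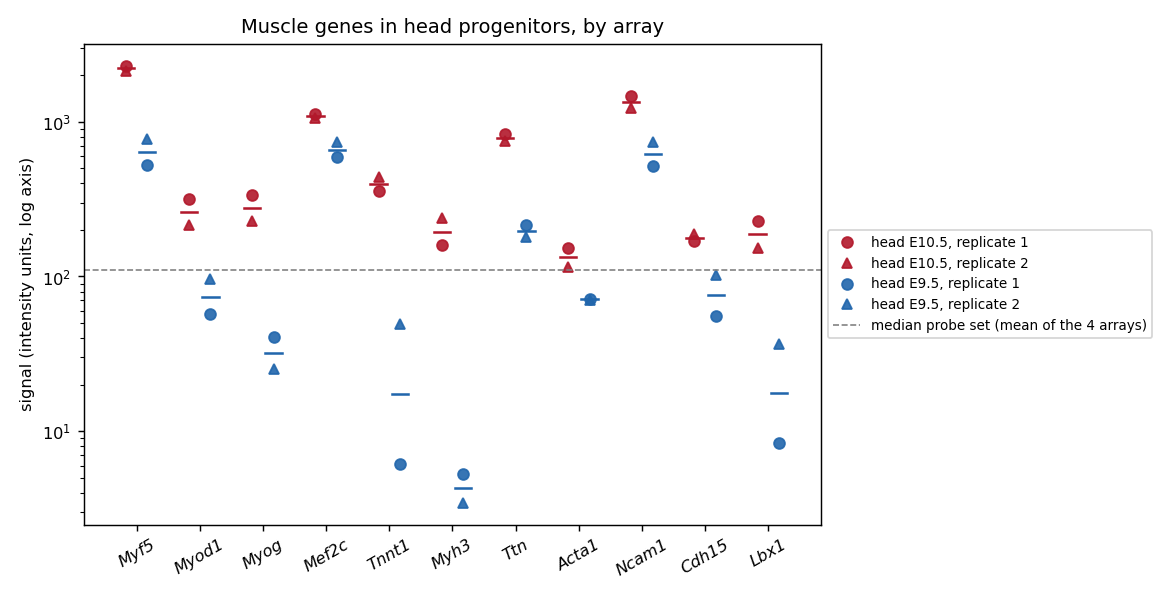
Signal of 11 muscle genes on each head array, on a log axis in intensity units, with E10.5 left of E9.5 for each gene. Horizontal bars are geometric means of the 2 arrays and the dashed line is the median probe set; Myf5, Myod1, Myog, Tnnt1, Myh3, Ncam1 and Lbx1 were called higher, while Mef2c, Ttn, Acta1 and Cdh15 were not called.

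Surface and migration genes of myoblasts were examined next. Of 17 listed adhesion and fusion genes 11 were tested and 1 rose, against 0.699% of all genes tested. That gene was Ncam1, the neural cell adhesion molecule of developing muscle and neurons. It had 1455 and 1228 at E10.5, against 517 and 744 at E9.5, a log2 difference of 1.11 ± 0.18 and a 2.15-fold higher level (limma adjusted p = 0.0165). A second Ncam1 probe set, under the median on all 4 arrays, differed by -0.01. Cdh15, the M-cadherin of myoblasts, had 168 and 189 at E10.5, against 55.4 and 103 at E9.5 (log2 difference 1.24, limma adjusted p = 0.0774). Vcam1, an adhesion molecule of myoblast fusion, differed by 1.15 (limma adjusted p = 0.331).

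Lbx1, a homeobox gene known for migrating limb and tongue muscle precursors, had 229 and 153 at E10.5, against 8.43 and 36.8 at E9.5. It was the 1 called gene among 13 tested of 15 dermomyotome and migration genes, with a log2 difference of 3.41 ± 0.62 and a fold of at least 1.70 (limma adjusted p = 0.0292, and 0.212 without E10.5 replicate 1). Pax3, which acts upstream of Lbx1 in the trunk, had 335 and 255 at E10.5, against 330 and 151 at E9.5, so the stages overlapped (log2 difference 0.39, 95% interval -0.33 to 1.12, limma adjusted p = 0.604). Pax7, its paralogue, lay under the median on all 4 arrays. Meox2, a somitic homeobox gene, differed by 0.78 and Cxcl12, a ligand for migrating precursors, by -0.71, neither called.

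None of the 13 tested genes on a list of 18 pharyngeal mesoderm regulators was called by limma, although 5 of them had an unadjusted p under 0.05, a level that 15.6% of all genes tested reached. Msc, the basic helix-loop-helix repressor musculin of jaw muscle precursors, had 1674 and 2194 at E10.5, against 698 and 1103 at E9.5 (log2 difference 1.13, 95% interval 0.45 to 1.80, limma adjusted p = 0.111). Tbx1, the T-box factor required for branchiomeric muscle, had 787 and 587 at E10.5, against 975 and 1064 at E9.5 (-0.58, interval -1.10 to -0.06, limma adjusted p = 0.269). Both genes had stages that did not overlap, in opposite directions.

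Isl1, the LIM homeobox gene of the second heart field, had 5482 and 4703 at E10.5, against 2875 and 4933 at E9.5, and the stages overlapped (0.43, interval -0.23 to 1.09). Tcf21, known as capsulin and a partner of Msc in jaw muscle, had 532 and 749 at E10.5, against 623 and 726 at E9.5 (-0.09, interval -1.55 to 1.37). Lhx2, another LIM homeobox gene of pharyngeal mesoderm, had 257 and 337 at E10.5, against 389 and 550 at E9.5 (-0.65, interval -2.13 to 0.83). The Tcf21 interval spans a 2-fold difference in both directions, and the Lhx2 interval spans a 2-fold lower level at E10.5. The early B-cell factor genes went opposite ways, Ebf1 by 0.79 and Ebf2 by -0.74, each with a limma adjusted p of 0.144. Tlx1, a homeobox gene of the pharyngeal arches, had 81.1 and 121 at E10.5, against 542 and 249 at E9.5 (limma adjusted p = 0.254). The list's median log2 difference was 0.18 over all arrays, and -0.15 without E10.5 replicate 1.

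Genes outside the muscle lists were also called higher. Epha3, a receptor for ephrin-A ligands, had 982 and 778 at E10.5, against 74.1 and 152 at E9.5. It differed by 3.04 ± 0.45 on the log2 scale, at least 6.76-fold (limma adjusted p = 0.0109, and 0.124 without E10.5 replicate 1). Bcl11a, a zinc finger repressor known from blood and brain, had 754 and 778 at E10.5, against 87.6 and 143 at E9.5, at least 6.10-fold (limma adjusted p = 0.00351). Its paralogue Bcl11b, known from T cells and skin, had 411 and 401 at E10.5, against 38.0 and 54.3 at E9.5, at least 3.69-fold (limma adjusted p = 0.00315). The paralogues had replicate values close together at E10.5, and each had an adjusted p of 0.0552 without E10.5 replicate 1.

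Fap, a serine protease on the surface of mesenchymal cells, had 475 and 369 at E10.5, against 43.0 and 68.1 at E9.5. Its log2 difference was 2.95 ± 0.24, at least 3.81-fold (limma adjusted p = 0.000257), and its limma adjusted p did not exceed 0.0107 with any of the 4 arrays left out. It was called under all 15 alternatives tried. The transcription factor gene Nfib was at least 4.01-fold higher. Zfp62, a zinc finger gene, was 3.87-fold higher by its brightest probe set, while a second and dimmer probe set differed by -0.45. Moxd1, related to dopamine beta-hydroxylase, was 3.999-fold higher, with 2039 and 1788 at E10.5, against 322 and 709 at E9.5.

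Calcrl, the adrenomedullin and calcitonin gene-related peptide receptor, was 3.70-fold higher, Angptl4, a secreted inhibitor of lipoprotein lipase, 2.97-fold and Olfm1, a secreted glycoprotein of neural tissue, 2.91-fold. Dkk2, a secreted modulator of Wnt signalling, was at least 2.96-fold higher, the protocadherin gene Pcdhb21 at least 3.05-fold, and Rgcc, a regulator of the cell cycle, 2.87-fold higher. The limma adjusted p of these 6 genes lay between 0.0109 and 0.0370. Without E10.5 replicate 1 none of them was called.

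Other called genes were named after their values were seen. Itm2a, a membrane protein gene, was among the brightest, with 8907 and 8616 at E10.5, against 2897 and 3952 at E9.5, a 2.59-fold higher level with all arrays well above the median (limma adjusted p = 0.00266). Tubb2a and Tubb2b, beta-tubulins, were 2.67-fold and 2.42-fold higher, and the intermediate filament gene Vim was 1.61-fold higher. Runx1, a Runt factor known from blood and muscle, was 2.73-fold higher. Msmo1, Cyp51 and Fdft1, enzymes of cholesterol synthesis, were 2.31-fold, 1.94-fold and 1.80-fold higher. Acat1 and Oxct1, enzymes of ketone body use, were 1.95-fold and 1.90-fold higher, Hadhb, of mitochondrial fatty acid oxidation, 1.53-fold, and Cpt1a, which carries fatty acids into mitochondria, at least 2.17-fold. These 7 enzymes had limma adjusted p values of 0.0182 to 0.0497, and none was called without E10.5 replicate 1.

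On the lower side Slc2a3, the neuronal and embryonic glucose transporter GLUT3, stood first. It had 716 and 878 at E10.5, against 5961 and 4172 at E9.5, and a log2 difference of -2.65 ± 0.28, a 6.29-fold lower level (limma adjusted p = 0.00226). A second Slc2a3 probe set had 467 and 506 at E10.5, against 4271 and 3019 at E9.5. Both probe sets placed every E10.5 value under every E9.5 value. Without E10.5 replicate 1 the adjusted p of Slc2a3 was 0.0552, at a log2 difference of -2.51.

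Sall4, a zinc finger factor of early embryonic cells, had 1048 and 898 at E10.5, against 2845 and 2647 at E9.5, 2.83-fold lower (limma adjusted p = 0.0212). It was the 1 called gene among 11 tested of 24 early embryo and RNA-binding growth genes, against 0.259% of all genes tested called lower. Of the 11, 7 had both E10.5 arrays under both E9.5 arrays (22.3% of all genes tested) and 6 an unadjusted p under 0.05 (15.6%). Lin28a, the RNA-binding protein that blocks let-7 processing, had 96.3 and 105 at E10.5, against 459 and 325 at E9.5 (log2 difference -1.94, limma adjusted p = 0.144). Igf2bp3 and Igf2bp1, RNA-binding proteins of embryonic growth, differed by -0.58 and -0.82, while Dnmt3a, a DNA methyltransferase, differed by 0.65, none called.

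Of 28 listed epithelial genes 18 were tested, 1 fell and 0 rose, against 0.259% and 0.699% of all genes tested. A log2 difference below 0 was found for 17 of the 18, against 3956 of all 7722 genes tested. Krt8, a keratin of simple epithelia, had 527 and 360 at E10.5, against 1188 and 1167 at E9.5, 2.70-fold lower (limma adjusted p = 0.0497). Its keratin partner Krt18 had 344 and 238 at E10.5, against 799 and 812 at E9.5 (limma adjusted p = 0.0873), and the adhesion molecule gene Epcam had 655 and 602 at E10.5, against 1167 and 1247 at E9.5 (limma adjusted p = 0.0511). The splicing regulator Esrp1 differed by -1.55 and the tight junction gene Cldn6 by -1.19. On this list 12 of 18 members had both E10.5 arrays under both E9.5 arrays, against 22.3% of all genes, and the median log2 difference was -0.99. It was -1.11 without E10.5 replicate 1 and -0.85 without E9.5 replicate 1. Pkp2, a desmosome and junction protein gene that is not on the list, fell 2.91-fold, with 465 and 509 at E10.5, against 1454 and 1375 at E9.5 (limma adjusted p = 0.00605).

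Matrix genes fell as well as rose. Lama1, the laminin alpha chain of early basement membranes, was 2.71-fold lower with 162 and 149 at E10.5, against 456 and 389 at E9.5 (limma adjusted p = 0.0446). Lama2, the alpha chain of mature muscle basement membrane, had 525 and 340 at E10.5, against 150 and 221 at E9.5 (log2 difference 1.22, limma adjusted p = 0.0961). The 2 chains thus ran in opposite directions, and Lama2 missed the threshold. Hapln1, the link protein that joins hyaluronan to proteoglycans, was 2.82-fold lower (limma adjusted p = 0.0482) and Npnt, an integrin ligand of basement membranes, 2.01-fold lower (limma adjusted p = 0.0476). Has2, which makes hyaluronan, had 506 and 316 at E10.5, against 1413 and 704 at E9.5 (limma adjusted p = 0.0969).

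Ogn, a small leucine-rich proteoglycan of connective tissue, had 234 and 118 at E10.5, against 13.5 and 17.2 at E9.5, at least 1.51-fold higher (limma adjusted p = 0.0165). It was the 1 called gene of 33 tested among 40 further matrix genes, against 0.699% of all genes tested called higher. On that list 16 members lay higher on both E10.5 arrays (20.5% of all genes) and 4 lower (22.3%), with a median of 0.38 that was 0.11 without E10.5 replicate 1. Tgfbi and Fbln5, secreted matrix proteins, differed by 0.86 and 1.32, each with a limma adjusted p of 0.0511. Of 19 collagens tested among 23, limma called 0, and 5 had an unadjusted p under 0.05 (15.6% of all genes tested). Col6a3 differed by 1.23, Col1a2 by 0.67 and Col4a1 by 0.36, and the collagen median was 0.24, and -0.03 without E10.5 replicate 1.

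**Figure D3:**
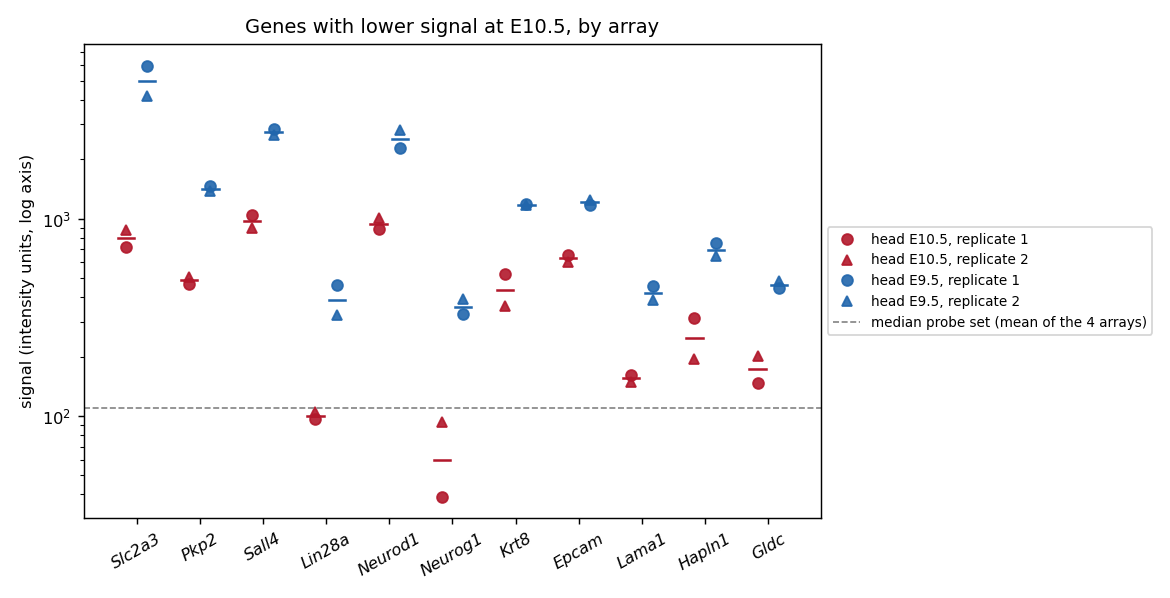
Signal of 11 genes that were dimmer at E10.5 on each head array, on a log axis in intensity units, with E10.5 left of E9.5 for each gene. Horizontal bars are geometric means of the 2 arrays and the dashed line is the median probe set; for each gene shown both E10.5 arrays lay under both E9.5 arrays, and Lin28a, Neurog1 and Epcam were not called.

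The remaining genes that fell have varied functions. Gldc, the glycine decarboxylase of one-carbon metabolism, was 2.68-fold lower and Plcg2, a phospholipase of immune receptor signalling, at least 2.57-fold lower. Rims2, a presynaptic scaffold gene, was 2.57-fold lower, and the alpha-tubulin gene Tuba4a 2.37-fold lower, although a second Tuba4a probe set above the median differed by 0.09. Apba3, an adaptor protein gene, was 2.21-fold, Rad50, of DNA break repair, 1.97-fold and Rnf44, a RING finger gene, 1.87-fold lower. Slit3, a guidance ligand for Robo receptors, had 24.2 and 15.4 at E10.5, against 127 and 106 at E9.5, near or under the median at both stages, so its fold was at least 1.08 (limma adjusted p = 0.0194). Mfap3, Map2k1, Hdgf and Trim28, named after their values were seen, were 1.86-fold, 1.80-fold, 1.55-fold and 1.36-fold lower. Trim28, a corepressor, had 4813 and 4807 at E10.5, against 6586 and 6508 at E9.5, the smallest called difference.

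Neuronal genes split. Of 34 listed, 23 were tested, 1 rose and 1 fell, against 0.699% and 0.259% of all genes tested. Neurod1, a basic helix-loop-helix factor of cranial sensory neurons, had 884 and 1004 at E10.5, against 2287 and 2822 at E9.5, 2.70-fold lower (limma adjusted p = 0.0446). Neurog1, which acts upstream of it in cranial ganglia, had 38.9 and 92.9 at E10.5, against 328 and 391 at E9.5 (log2 difference -2.58, limma adjusted p = 0.143). Mapt, the axonal microtubule protein tau, went the other way with 232 and 133 at E10.5, against 18.6 and 35.0 at E9.5, at least 1.60-fold higher (limma adjusted p = 0.0476). Gap43, a growth cone protein gene, had 463 and 488 at E10.5, against 117 and 254 at E9.5 (limma adjusted p = 0.0727), and Stmn3, a microtubule regulator of neurons, differed by 2.04 (limma adjusted p = 0.0812). The list had 13 members with both E10.5 arrays above both E9.5 arrays, against 20.5% of all genes tested, and 2 with both below, against 22.3%, and its median of 0.87 became 0.43 without E9.5 replicate 1. An unadjusted p under 0.05 was found for 13 of the 23, against 15.6% of all genes tested. Log2 differences were above 0 for 19 of the 23 and below 0 for 4, against 3766 and 3956 of all 7722 genes tested. The summed signal of 7 neuronal markers was 4999 and 5369 at E10.5, against 4195 and 6327 at E9.5, so the stages overlapped. Neurod1, which fell, was the largest part of that sum on both E9.5 arrays.

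Markers of other cell types were compared in the same way. Of 24 endothelial genes 21 were tested, limma called 0 and 7 had an unadjusted p under 0.05 (15.6% of all genes tested). On this list 14 members were higher on both E10.5 arrays (20.5% of all genes tested) and 1 lower (22.3%), with a median of 0.62. Cldn5, an endothelial tight junction gene, had 1339 and 1027 at E10.5, against 327 and 590 at E9.5 (log2 difference 1.42, limma adjusted p = 0.0543), and the lymphatic receptor gene Flt4 differed by 1.33. The summed signal of 8 endothelial markers was 3679 and 3768 at E10.5, against 2079 and 2903 at E9.5, with Pecam1 under the median on all 4 arrays.

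Of 17 macrophage and leukocyte genes 5 were tested, limma called 0 and 3 had an unadjusted p under 0.05 (15.6% of all genes tested). Csf1r, the colony-stimulating factor receptor of macrophages, had 1354 and 399 at E10.5, against 384 and 161 at E9.5. Laptm5 and Adgre1, known from leukocytes and macrophages, differed by 1.39 and 1.32. The summed signal of 5 macrophage markers was 2810 and 1256 at E10.5, against 782 and 657 at E9.5, with Ptprc and Tyrobp under the median on all 4 arrays. Ctss and Cd83, genes known from antigen-presenting cells and named after their values were seen, were both called higher at E10.5, by at least 1.84-fold for Ctss and at least 2.84-fold for Cd83. The part of these markers in the called genes was not tested.

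Summed signals of 4 further marker lists were lower on both E10.5 arrays than on both E9.5 arrays, and that of 1 was higher. That of the neural progenitor markers overlapped between the stages, with 930 and 2010 at E10.5, against 1048 and 1552 at E9.5. Of these markers, Pax6, Sox1 and Sox3 lay under the median on all 4 arrays. The summed signal of 6 epithelial markers was 2269 and 1811 at E10.5, against 4903 and 4556 at E9.5. That of the neural crest markers was 961 and 1310 at E10.5, against 1998 and 1948 at E9.5. For the primitive erythroid markers it was 19803 and 18777 at E10.5, against 24965 and 21429 at E9.5. Hbb-y, the largest part of that sum, overlapped between the stages, with 14054 and 13688 at E10.5, against 14866 and 12924 at E9.5. Hbb-bh1 had 5502 and 4910.5 at E10.5, against 9467.1 and 7933.5 at E9.5. The cardiomyocyte markers, of which Myh6, Myl2 and Nppa lay under the median on all 4 arrays, summed to 93.5 and 102 at E10.5, against 293 and 154 at E9.5. Myl7 lay above the median only on E9.5 replicate 1, with 119.5, so the difference between these sums came from signals near or under the median. The cartilage markers ran the other way, with 3741 and 3285 at E10.5, against 2747 and 2840 at E9.5. Of these, Acan and Matn1 lay under the median on all 4 arrays. The wider cartilage and sclerotome list, with 12 tested, had 5 log2 differences above 0, 7 below 0 and a median of -0.16. Of 15 neural crest and ectomesenchyme genes tested among 24, limma called 0, and 8 had an unadjusted p under 0.05 (15.6% of all genes tested). Dlx2, a homeobox gene of pharyngeal arch crest, had 132 and 174 at E10.5, against 290 and 333 at E9.5 (limma adjusted p = 0.129), and Sox10, of migrating crest, 33.4 and 48.4 at E10.5, against 117 and 81.4 at E9.5. On this list 10 members had both E10.5 arrays under both E9.5 arrays, against 22.3% of all genes, and the median of -0.98 became -0.59 without E10.5 replicate 1. Six2, a homeobox gene of head mesenchyme, differed by 0.85 in the other direction. Hba-x, an embryonic globin gene, had 161 and 124 at E10.5, against 463 and 490 at E9.5 (limma adjusted p = 0.142), and the median of 7 tested erythroid genes was -0.99, and -0.57 without E10.5 replicate 2.

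Limma called 0 of the listed mitosis and DNA replication genes. Of 29 mitosis genes tested, 12 had an unadjusted p under 0.05, where 15.6% of all genes did. Both E10.5 arrays lay under both E9.5 arrays for 22 of the 29, where they did so for 22.3% of all genes. The median log2 difference was -0.36, and it stayed between -0.43 and -0.28 with each array left out. Aurkb, the chromosomal passenger kinase, had 542 and 639 at E10.5, against 928 and 1080 at E9.5 (limma adjusted p = 0.0694), and the spindle factor gene Tpx2 differed by -0.88. Of 30 DNA replication genes 16 had both E10.5 arrays under both E9.5 arrays (22.3% of all genes tested). An unadjusted p under 0.05 was found for 10 of the 30 (15.6% of all genes tested), and the median was -0.22. Mcm7, of the replicative helicase, differed by -0.27 and Ccne2, the cyclin E2 gene, by 0.79.

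On the list of D cyclins and cell cycle exit genes, 21 were tested and limma called 0. An unadjusted p under 0.05 was found for 6 of the 21, against 15.6% of all genes tested. Cdkn1c, the inhibitor p57, had 6604 and 6644 at E10.5, against 3454 and 4322 at E9.5, a 1.71-fold higher level with a limma adjusted p of 0.0569. The retinoblastoma gene Rb1 differed by 0.61 (limma adjusted p = 0.0945). Mycn, a growth-promoting Myc gene, differed by -0.81 and Cdk4, the kinase partner of D cyclins, by -0.58. On this list 11 members were higher on both E10.5 arrays and 3 lower, against 20.5% and 22.3% of all genes tested, and the median was 0.25, and 0.10 without E9.5 replicate 1.

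Genes of glucose and oxidative metabolism were also compared. Of 26 tested glycolysis and hypoxia response genes among 32, Slc2a3 alone fell and 0 rose, against 0.259% and 0.699% of all genes tested. Of the 26, 7 had an unadjusted p under 0.05 (15.6% of all genes tested), and 15 had both E10.5 arrays under both E9.5 arrays (22.3%). Pfkl, the liver type phosphofructokinase, had 813 and 774 at E10.5, against 1889 and 1339 at E9.5 (limma adjusted p = 0.0855), and Ldha, lactate dehydrogenase A, 1915 and 3233 at E10.5, against 3896 and 4984 at E9.5 (limma adjusted p = 0.0954). The list median was -0.28, between -0.38 and -0.25 with each array left out. Of 56 respiratory chain genes tested among 61, limma called 0 and 9 had an unadjusted p under 0.05, near the 15.6% of all genes tested. Of the 56, 23 lay higher on both E10.5 arrays and 1 lower, against 20.5% and 22.3% of all genes tested, with a median of 0.12 that was 0.06 without E9.5 replicate 1. Ndufb5, a complex I subunit gene, had 4514 and 4735 at E10.5, against 3016 and 3426 at E9.5 (limma adjusted p = 0.0988).

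**Figure D4:**
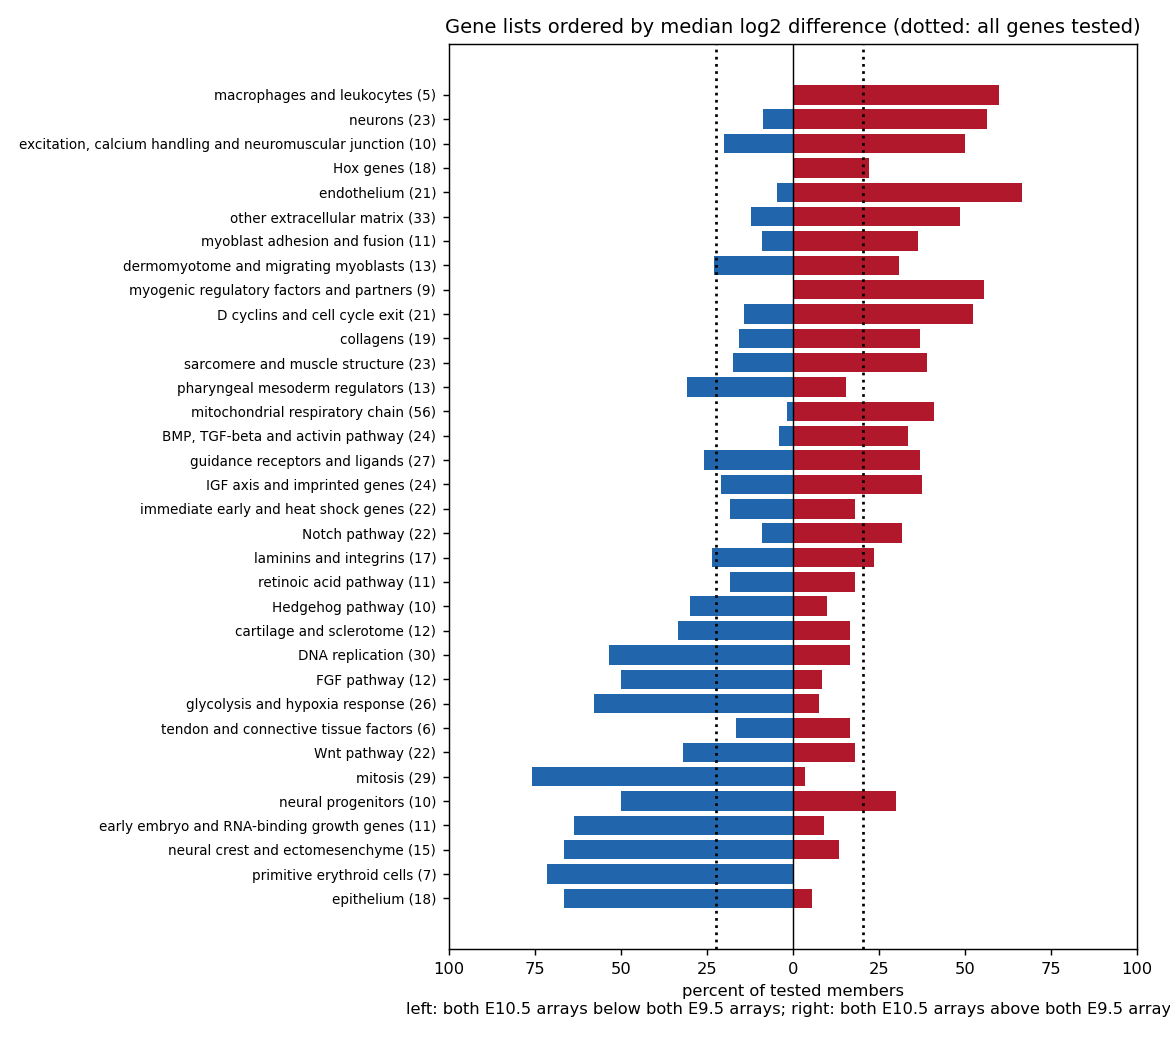
Share of the tested members of each gene list drawn (number tested in brackets) whose 2 head E10.5 arrays both lay under both head E9.5 arrays (blue bars, left) or both lay above them (red bars, right), in percent, with lists ordered by median log2 difference. Lists of cardiac genes (3 tested), fore- and midbrain homeobox genes (3 tested) and X inactivation and Y-linked genes (4 tested) are not drawn. Dotted lines are the shares over all genes tested, 22.3% to the left and 20.5% to the right; the mitosis and primitive erythroid lists reach furthest left and the endothelium list furthest right.

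Signalling pathways held few called genes, beside 0.699% of all genes tested called higher and 0.259% called lower. In the TGF-beta, BMP and activin pathway the ligand gene Tgfb2 rose, with 1836 and 1242 at E10.5, against 790 and 631 at E9.5, 2.14-fold (limma adjusted p = 0.0287, and 0.210 without E10.5 replicate 1), the only call among 24 tested of 35. The receptor gene Tgfbr2 had 1253 and 1303 at E10.5, against 693 and 577 at E9.5, a 2.02-fold higher level with a limma adjusted p of 0.0543. Acvr2b, an activin and myostatin receptor gene, differed by -0.83 (limma adjusted p = 0.0812). In the Wnt pathway Dkk2 was the only call among 22 tested of 35, and Axin2, a target of Wnt signalling, differed by -0.63 (limma adjusted p = 0.233).

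Limma called 0 of 22 tested Notch pathway genes, 0 of 12 FGF pathway genes, 0 of 11 retinoic acid genes and 0 of 10 Hedgehog genes. Of these, 2, 3, 1 and 2 had an unadjusted p under 0.05, where 15.6% of all genes tested did. Hes5, a Notch target gene, had 193 and 1182 at E10.5, against 1335 and 999 at E9.5, so the E10.5 arrays themselves disagreed. In the guidance list Epha3 rose and Slit3 fell among 27 tested of 36, against 0.699% and 0.259% of all genes tested. An unadjusted p under 0.05 was found for 12 of the 27, against 15.6% of all genes tested. Ackr3, a scavenger receptor of Cxcl12, had 573 and 420 at E10.5, against 168 and 198 at E9.5 (limma adjusted p = 0.0742), and the semaphorin and VEGF coreceptor gene Nrp1 differed by 0.90 (limma adjusted p = 0.0858). Limma called 0 of 24 growth-related IGF axis and imprinted genes, 9 at an unadjusted p under 0.05 (15.6% of all genes tested). Log2 differences were above 0 for 13 of the 24, among them Ndn at 0.46 and Igf2r at 0.69, and below 0 for 11, among them Phlda2 at -2.07 and Zim1 at -1.94. Phlda2 had 80.7 and 52.6 at E10.5, both under the median probe set, against 402 and 186 at E9.5, at least 2.49-fold lower. Zim1 lay under the median on all 4 arrays, so it has no fold.

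Of 39 Hox genes 18 were tested, and Hoxd1 alone rose, against 0.699% of all genes tested. It had 172 and 147 at E10.5, against 26.0 and 38.2 at E9.5, at least 1.45-fold (limma adjusted p = 0.00435, and 0.0686 without E10.5 replicate 1). Hoxa2, which patterns the second pharyngeal arch, had 211 and 152 at E10.5, against 82.3 and 129 at E9.5 (limma adjusted p = 0.289). Most of the 18 tested, among them Hoxc4 and Hoxc8, lay under the median on all 4 arrays. The Hox median of 0.63 thus came largely from signals under the median probe set. It was 0.09 without E10.5 replicate 1 and 0.05 without E9.5 replicate 2. Otx2, a fore- and midbrain homeobox gene, had 61.4 and 86.7 at E10.5, against 324 and 468 at E9.5, with a log2 difference of -2.41 and a 95% interval from -5.17 to 0.34 (limma adjusted p = 0.379).

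**Figure D5:**
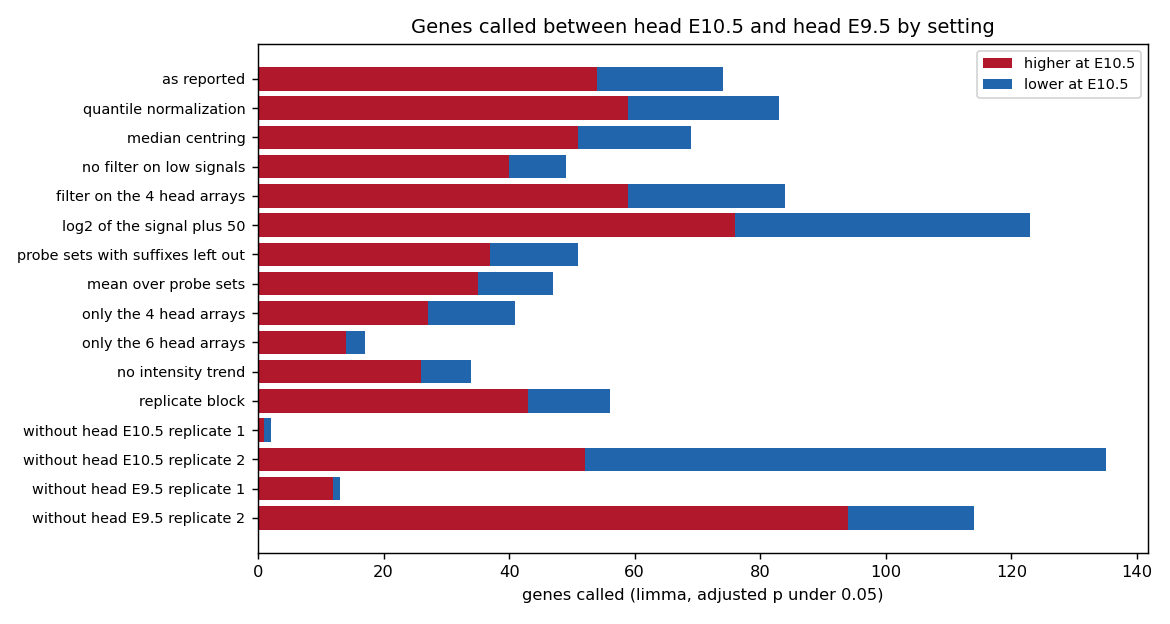
Number of genes called between head E10.5 and head E9.5 under the reported setting and under each of 15 alternatives, split into genes higher at E10.5 (red) and lower at E10.5 (blue). The count ranged between 2, without E10.5 replicate 1, and 135, without E10.5 replicate 2, beside 74 as reported.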

How the data were processed

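RNA of sorted cells was measured on an Affymetrix array with 22690 probe sets. Per the submitters' processing notes the intensity values were made with MAS5 in Affymetrix Expression Console, with no version in the sources used here. The deposited intensity table was used without further normalization after a log2 transform. Probe sets are named by the platform annotation, with symbols matched through Entrez identifiers for 20351 probe sets and 29 unmatched. Control probe sets (64), those of several genes (691) and those annotated to no gene here (1555) were left out. Probe sets above their array's median on at least 2 of 12 arrays were kept, and the brightest represented its gene, giving 7722 of 12393 genes. No detection flags were used.

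Differences were tested two-sided with limma 3.58.1 in R 4.3.3 (lmFit, eBayes with an intensity trend) over 6 group means of all 12 arrays, with 6 residual and 5.87 prior degrees of freedom, and Benjamini-Hochberg adjustment at 0.05. The fit was tested on simulated data. The number of arrays (2 per group) limits the precision. Replicate numbers were not used as pairs. Alternatives were 2 other normalizations, 2 filters, an added offset of 50, 2 probe set rules, 2 smaller sample sets, no trend, a replicate block and each head array left out.

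Named genes were the 15 most positive and 15 most negative called genes by floored difference, called members of 37 lists (934 entries, 626 distinct genes tested), up to 5 further members per list by smallest p, fixed muscle and pharyngeal factors and markers. The samples compared and the lists were chosen with earlier results of these data known. Of the 74 called genes, 36 had another probe set past the filter, and 5 of these had one of opposite sign.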

Additional observations from a re-analysis of the deposited data

How the results depend on the processing

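All 74 called genes kept their direction with each of the 4 head arrays left out, and Fap was the only gene called under all 15 alternatives. The count of calls (higher at E10.5, lower at E10.5) was 83 (59, 24) with quantile normalization and 69 (51, 18) with median centring. It was 49 (40, 9) with no filter on low signals, 84 (59, 25) with the filter on the 4 head arrays, 123 (76, 47) with 50 added to each signal, 51 (37, 14) with suffixed probe sets left out and 47 (35, 12) with the mean over probe sets. It was 41 (27, 14) with only the 4 head arrays, 17 (14, 3) with only the 6 head arrays and 34 (26, 8) without the intensity trend. With 1 array left out it ranged between 2 and 135, for genes higher between 1 and 94 and for genes lower between 1 and 83; the lone array of a stage was then assumed to vary like the other groups. The cause of these shifts was not tested. With suffixed probe sets left out, another probe set stood for Ncam1 and Tuba4a, and their log2 differences were -0.014 and 0.090, with limma adjusted p values of 0.989 and 0.902. Over the other called genes, no direction was reversed. A change of direction in a gene called neither as reported nor under the alternative was not counted.

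With the replicate number as a block, 56 genes were called (43 higher, 13 lower), of which 49 were among the 74. The deviations of same-numbered head arrays correlated at 0.17, the highest over the pairs of groups, which ran down to -0.30, and the numbers were not taken as pairs.

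Signals under the median probe set, as for Myh3, Myog, Tnnt1 and Lbx1 at E9.5, have no reliable log2 difference and only a bound on the fold.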
